A study of Homo sapiens with 60 samples.

Results

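The comparison described here sets the high dose of the water extract of Banhasasim-tang against its low dose in SW1783 cells, an established human astrocytoma line. The high-dose group received 500 µg/mL and the low-dose group 20 µg/mL, both for 24 h, and each group had 3 libraries. These 6 libraries, chosen by the formula and dose in their labels, are 6 of the 60 in the series, which tested extracts of herbs and herbal formulas at several doses by RNA sequencing. Banhasasim-tang is a decoction used for stomach complaints, traditionally made with Pinellia tuber, Scutellaria root, Coptis rhizome, ginger, ginseng, licorice and jujube. A group at 100 µg/mL (the medium dose, 3 libraries) and the high and low doses of Yijung-tang, a ginger and ginseng formula (500 and 20 µg/mL, 24 h, 3 libraries each), carry sample codes of the same set, numbered 7. Cells with the vehicle, DMSO for 24 h (3 libraries; 0.1% in the sample labels but 2% in the design text of the series), are in another code set, so set and treatment cannot be told apart there. Vehicle levels are therefore given only as a reference. The labels state no DMSO content for the extract groups. They also do not say whether the 3 libraries of a group came from separate cultures, so p-values measure the spread between libraries, which may be technical, in 1 cell line.

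Much of what follows concerns genes under the control of NF-kB, a family of transcription factors that includes RELA, RELB, NFKB1 and NFKB2. NF-kB is held in the cytoplasm by inhibitors such as NFKBIA until a stimulus such as a cytokine or a bacterial product leads to their breakdown. In the nucleus it switches on chemokines, cytokines and adhesion molecules, and also the genes of its own inhibitors, which close a feedback loop. Astrocytes and glioma cells are known to release CXCL8, IL6 and CCL2 by this route.

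The 9 Banhasasim-tang libraries held between 23.35 and 36.41 M counts (M, mega). Total counts averaged 27.24 M at the high and 27.38 M at the low dose (exact two-sided permutation test, p = 1, smallest possible 0.1). The share of counts from mitochondrially encoded genes was 6.35% ± 0.485 (SD, n = 3) at the high dose and 6.21% ± 0.218 (SD, n = 3) at the low dose (p = 0.8 by the same exact test). The first high-dose library had the highest share, 6.91% against 6.02% and 6.12% in its replicates, and the difference of the means, 0.137 percentage points, was -0.141 without it. It also differed more from its replicates, with a chi-square per degree of freedom over genes of 4.38 and 4.82, against 2.95 for the other pair. In the 9 libraries the deviation from the group mean had a root mean square between 0.11 and 0.124 on the log2 scale. The label of the line was only partly met by astrocyte markers. AQP4 had 0 counts in all 6 libraries, GFAP 7 counts summed over the low-dose and 8 over the high-dose libraries, S100B 8 and 5, ALDH1L1 2 and 3, and SOX2 0 and 1. VIM, CD44, CHI3L1, SOX9 and SLC1A3, which glioma lines share with mesenchymal cells in part, were well above the filter on low counts, as were COL1A1 and COL1A2. Among markers of other cells, TYROBP and AIF1 (microglia), CDH5 (endothelium) and SOX10 (oligodendrocytes) had 0 counts, but others of the same lists did not. Summed over the low-dose and the high-dose libraries, PTPRC had 1129 and 899 counts, CSF1R 334 and 229, CD68 13417 and 14372, KDR 2389 and 2251, TEK 101 and 102, and MBP 567 and 611. Of 9 tested astrocyte and glioma markers 4 fell, where 3.58% of all genes tested fell, with a median log2 change of -0.179 (high minus low dose). That count was 2 without the first or the third high-dose or the second or the third low-dose library. Of 5 tested neuron markers 2 fell, beside the same 3.58%, with a median of -0.112. The neuron count was 0 without the first high-dose or the second low-dose library. It was 1 without the third high-dose or the first low-dose library. The part of these markers in the results below was not tested.

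At the high dose, genes of the NF-kB and cytokine response stood highest relative to the low dose, and several mesenchymal marker, collagen and intermediate filament genes stood lower. CXCL8, a chemokine that attracts neutrophils, rose most among genes with a mean of at least 5 CPM in the higher of the 2 groups. Its log2 fold change was 3.49 ± 0.0741 (SE). CPM, the usual unit of counts scaled to library size, is computed with TMM factors, and fold changes are high minus low dose on the log2 scale. Of 17190 genes tested, 530 rose (3.08%) and 616 fell (3.58%), together 6.67%, by edgeR's quasi-likelihood test at a Benjamini-Hochberg adjusted p under 0.05. Most changes were small: the median size among the called genes was 0.26 on the log2 scale, 39 rises (0.227%) and 9 falls (0.0524%) were larger than 1, and the median over all genes tested was 0. Of the 39 rises larger than 1, 19 belonged to the lists of cytokines and NF-kB genes described next, which held 32 of the 17190 genes tested. These lists were chosen with earlier results of these data known, so the overlap is a description and no independent support.

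**Figure D1:**
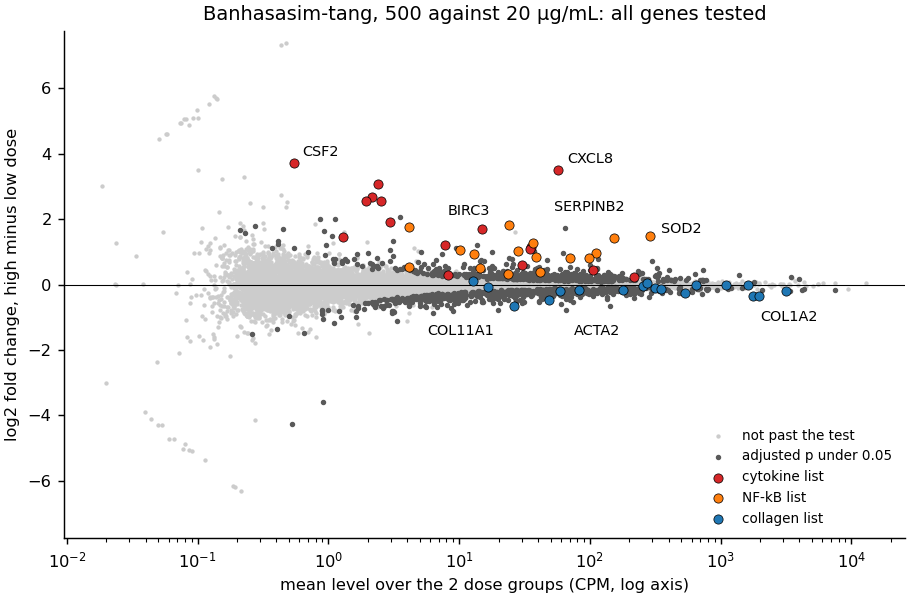
Log2 fold change between the high and low dose (y axis) against the mean level of both groups (x axis, CPM, log scale) for the 17190 genes tested, 1 point per gene; dark grey points passed the test and coloured points are members of 3 gene lists. All 16 tested cytokine members and all 16 NF-kB members lie above 0, CXCL8 stands at 3.49, and 10 of 18 collagens are called below 0.

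Chemokines of the CXCL family, which guide leukocytes along concentration gradients, were among the largest rises. CXCL8 (ENSG00000169429, chr4:73740506-73743716, plus strand) measured 8.43, 10.9 and 8.85 CPM in the low-dose libraries, 26.3, 29.1 and 29.5 CPM in the medium-dose libraries and 105, 103 and 109 CPM in the high-dose libraries. The 3 doses did not overlap, and the vehicle mean was 4.96 CPM ± 0.419 (SD, n = 3). The adjusted p of the high against the low dose was 4.23e-37 by edgeR, the tool behind all adjusted p-values given here. CXCL1, CXCL2, CXCL3 and CXCL5, relatives of CXCL8, were scarce but rose as well. CXCL1 had 14, 23 and 10 counts at the low dose, 32, 41 and 58 at the medium dose and 108, 114 and 85 at the high dose, a log2 change of 2.68 (adjusted p = 1.33e-11). CXCL5 had 32, 37 and 31 counts at the low dose and 142, 121 and 118 at the high dose, a log2 change of 1.93 (adjusted p = 5.45e-10). Every high-dose library lay above every low-dose library in both genes. CXCL1, CXCL2 and CXCL3 are closely similar in sequence, and RSEM may have divided their reads by estimate, so their separate values are uncertain.

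To show what lies upstream of the genes that moved together, bases before the RefSeq start are given for 2 cytokine genes and 3 NF-kB genes, on build GRCh38.p14, 5′ to 3′ in the direction of the gene. For CXCL8 (chr4:73740319-73740505, plus strand), IL6 (chr7:22726950-22727146, plus strand) and BIRC3 (chr11:102317234-102317449, plus strand) they run from 250 bases before the start to the first base that GENCODE v29 places in an exon. In ICAM1 (chr19:10270924-10270953, plus strand) and TNFAIP3 (chr6:137867188-137867217, plus strand) GENCODE places the matches in a first exon of a longer transcript, and 30 bases around them are given. Capitals mark matches, on either strand, to the letters GGANNTTCC or GGAAATCCC, which resemble the NF-kB binding element. Both letter patterns were chosen after the changes were known. The genes shown were picked by hand and each had to hold a match, so they do not stand for their lists. Counts over the lists are given after the bases.
CXCL8: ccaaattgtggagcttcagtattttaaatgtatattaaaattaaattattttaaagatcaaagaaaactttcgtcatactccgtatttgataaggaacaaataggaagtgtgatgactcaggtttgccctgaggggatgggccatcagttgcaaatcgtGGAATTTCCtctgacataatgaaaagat
IL6: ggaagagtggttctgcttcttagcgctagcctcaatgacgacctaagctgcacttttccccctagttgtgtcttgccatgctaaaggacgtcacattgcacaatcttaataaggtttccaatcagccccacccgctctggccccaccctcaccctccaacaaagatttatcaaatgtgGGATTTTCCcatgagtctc
BIRC3: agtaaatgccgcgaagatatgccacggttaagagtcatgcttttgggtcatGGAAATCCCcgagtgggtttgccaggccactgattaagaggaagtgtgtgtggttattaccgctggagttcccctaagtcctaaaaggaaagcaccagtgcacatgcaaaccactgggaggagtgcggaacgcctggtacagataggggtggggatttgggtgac
ICAM1: gctttagcttGGAAATTCCggagctgaagc
TNFAIP3: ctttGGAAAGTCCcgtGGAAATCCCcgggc

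The match begins 91 bases before the RefSeq start in CXCL8, 72 in IL6, 186 in ICAM1 and 199 in BIRC3, and TNFAIP3 holds matches at 67 and 55 bases. The same bases cannot match both patterns. GGANNTTCC stood in 8 of the 13 cytokine genes with a promoter in the RefSeq table (250 bases before to 50 after the start), or 61.5%, in 7 of 12 NF-kB genes (58.3%) and in 1 of 12 collagens (8.33%). Over the 35116 promoters of the table it stood in 4.56%, and 5.57% of the 27305 genes had it in at least 1 promoter. GGAAATCCC stood in 3 of the 12 NF-kB genes (25%), in 0 of the 13 cytokine genes, in 0 of the 12 collagens and in 0.48% of all genes. TGANTCA, the letters of the AP-1 element, stood in 3 of the 13 cytokine genes (23.1%), in 0 of the 12 NF-kB genes, in 0 of the 12 collagens and in 9.37% of all genes. A match describes the letters of the window and not a site in use.

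Cytokines rose as a group. Of 17 listed cytokines and chemokines, 16 passed the filter on low counts, CCL20 being too scarce to test. All 16 rose, beside 3.08% of all genes, with a median log2 change of 1.577. Each of these 16 genes had its 3 high-dose libraries above its 3 low-dose libraries, which held for 10.8% of all genes tested. The filter spans all groups, so a gene scarce at the low dose can pass it through groups where it is high. CSF2, with 2, 1 and 3 counts at the low dose and 30, 30 and 23 at the high dose, could hardly have counted as a fall. IL33, an alarmin, was less stable: its log2 change was 0.31 with an adjusted p of 0.0332, and the p was 0.0824 to 0.146 without the first or the second high-dose or the first or the third low-dose library. IL6 (ENSG00000136244, chr7:22725884-22732002, plus strand), a cytokine of the acute phase response, measured 6.63, 6.79 and 7.39 CPM at the low dose, 10.0, 10.7 and 10.9 CPM at the medium dose and 20.1, 23.2 and 25.2 CPM at the high dose. That is a log2 change of 1.71 ± 0.106 (SE, adjusted p = 9.48e-18), with no overlap between the 3 doses. CCL2, which attracts monocytes, stood at 22.3, 22.7 and 22.2 CPM at the low dose and at 48.5, 47.0 and 48.1 CPM at the high dose, a log2 change of 1.1 (adjusted p = 3.82e-15). IL1B, a cytokine made as an inactive precursor, went from 4.16, 4.91 and 5.01 CPM to 11.7, 9.60 and 11.7 CPM, a log2 change of 1.22 (adjusted p = 4.23e-13). In both genes every high-dose library lay above every low-dose library. Cytokines are also made by leukocytes. Of the 8 leukocyte markers TYROBP and AIF1 were at 0, and 2 of 3 tested fell (3.58% of all genes did), with a median of -0.324. PTPRC, the leukocyte phosphatase CD45, fell by 0.32 (adjusted p = 0.00503), but not beyond the test without the second high-dose library (-0.26, adjusted p = 0.0748). CSF1R, a receptor of macrophages, fell by 0.54 (adjusted p = 0.00579), but not without the first low-dose library (-0.47, adjusted p = 0.054) or the second high-dose library (-0.45, adjusted p = 0.0677). The list summed to 175 to 188 CPM at the low dose and 188 to 191 CPM at the high dose, most of it from CD68, a lysosomal protein, and its part in the result was not tested.

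LIF, a cytokine of the IL6 family, rose from 24.1, 20.6 and 21.4 CPM to 47.9, 47.1 and 50.2 CPM, a log2 change of 1.13 (adjusted p = 3.12e-20). IL32 rose from 8.92, 8.51 and 7.53 CPM to 20.1, 19.4 and 17.9 CPM, a log2 change of 1.21 (adjusted p = 1.3e-16). The colony-stimulating factors, which drive the growth of myeloid cells, differed widely in level and in change. CSF2 had 2, 1 and 3 counts at the low dose, 3, 7 and 8 at the medium dose and 30, 30 and 23 at the high dose, a log2 change of 3.7 that rests on few counts (adjusted p = 6.23e-07). CSF3 had 18, 13 and 10 counts at the low dose and 110, 125 and 111 at the high dose, a log2 change of 3.07 (adjusted p = 1.93e-13). CSF1, by far the most abundant of these, changed by 0.22 on the log2 scale, from a mean of 201 to 235 CPM (adjusted p = 0.00081). TSLP and IL11 rose by 0.58 and 0.45 (adjusted p = 1.93e-08 and 4.54e-05).

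The feedback genes and effectors of NF-kB rose too: all 16 listed genes were tested and all 16 passed the test upward, beside 3.08% of all genes. Their median log2 change was 0.943. Here too the high-dose libraries lay above the low-dose libraries in 16 of 16 genes, as they did in 10.8% of all genes tested. VCAM1, an adhesion molecule with a log2 change of 0.54 (adjusted p = 0.0139), lost its call without the first or the third high-dose or the first or the third low-dose library, with log2 changes of 0.45 to 0.5 and adjusted p of 0.0758 to 0.116. BIRC3 (ENSG00000023445, chr11:102317450-102339403, plus strand), an inhibitor of apoptosis and ubiquitin ligase in the pathway, measured 11.8, 10.9 and 9.35 CPM at the low dose, 17.4, 18.1 and 16.2 CPM at the medium dose and 36.1, 36.3 and 39.5 CPM at the high dose. The log2 change was 1.81 ± 0.0758 (SE, adjusted p = 2.11e-24). TNFAIP3 (ENSG00000118503, chr6:137867188-137883312, plus strand), which encodes the ubiquitin-editing enzyme A20 and shuts the pathway off, measured 22.3, 21.4 and 20.9 CPM at the low dose, 33.2, 31.4 and 32.1 CPM at the medium dose and 50.5, 53.7 and 52.9 CPM at the high dose. Its log2 change was 1.28 ± 0.0541 (SE, adjusted p = 2.25e-24). The doses did not overlap in either gene, and the vehicle means were 10.2 and 19.7 CPM.

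Among the subunits and inhibitors of NF-kB, RELB rose by 1.03 (18.9, 19 and 17.8 CPM against 35.1, 38.5 and 40.4 CPM, adjusted p = 1.91e-19). NFKB2, the precursor of its partner p52, rose by 0.83 and NFKB1 by 0.33 (adjusted p = 8.32e-17 and 7.55e-06). The inhibitor NFKBIA stood at 51.0, 52.8 and 48.5 CPM at the low dose and at 87.3, 87.7 and 92.6 CPM at the high dose, a log2 change of 0.81 (adjusted p = 1.08e-17). NFKBIZ, a nuclear cofactor needed for IL6, rose from 6.97, 7.03 and 5.74 CPM to 13.7, 13.6 and 13.4 CPM (adjusted p = 1.21e-11) and the adaptor TRAF1 by 0.93 on the log2 scale (adjusted p = 1.54e-14). In each of these the groups were separate.

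Effector genes followed the same order of doses. ICAM1 (ENSG00000090339, chr19:10270835-10286615, plus strand), the adhesion molecule that binds leukocyte integrins, measured 84.8, 85.2 and 78.0 CPM at the low dose, 132, 124 and 136 CPM at the medium dose and 221, 218 and 230 CPM at the high dose. SOD2 (ENSG00000112096, chr6:159669057-159745186, minus strand), the manganese superoxide dismutase of mitochondria, measured 151, 161 and 148 CPM at the low dose, 227, 227 and 231 CPM at the medium dose and 443, 408 and 427 CPM at the high dose. The log2 changes were 1.43 ± 0.0459 for ICAM1 (SE, adjusted p = 2.18e-29) and 1.47 ± 0.0561 for SOD2 (SE, adjusted p = 3.3e-26), and no 2 doses overlapped. PTGS2, the inducible cyclooxygenase, went from 71.9, 75 and 81.4 CPM to 149, 141 and 153 CPM, a log2 change of 0.95 (adjusted p = 1.12e-19). Complement C3 went from 74.9, 73.4 and 67.5 CPM to 127, 122 and 130 CPM, a log2 change of 0.81 (adjusted p = 2.94e-18). The vehicle mean of PTGS2, 99.4 CPM, lay within the range of the medium-dose libraries and above all low-dose libraries, whereas that of C3, 52 CPM, lay below them.

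**Figure D2:**
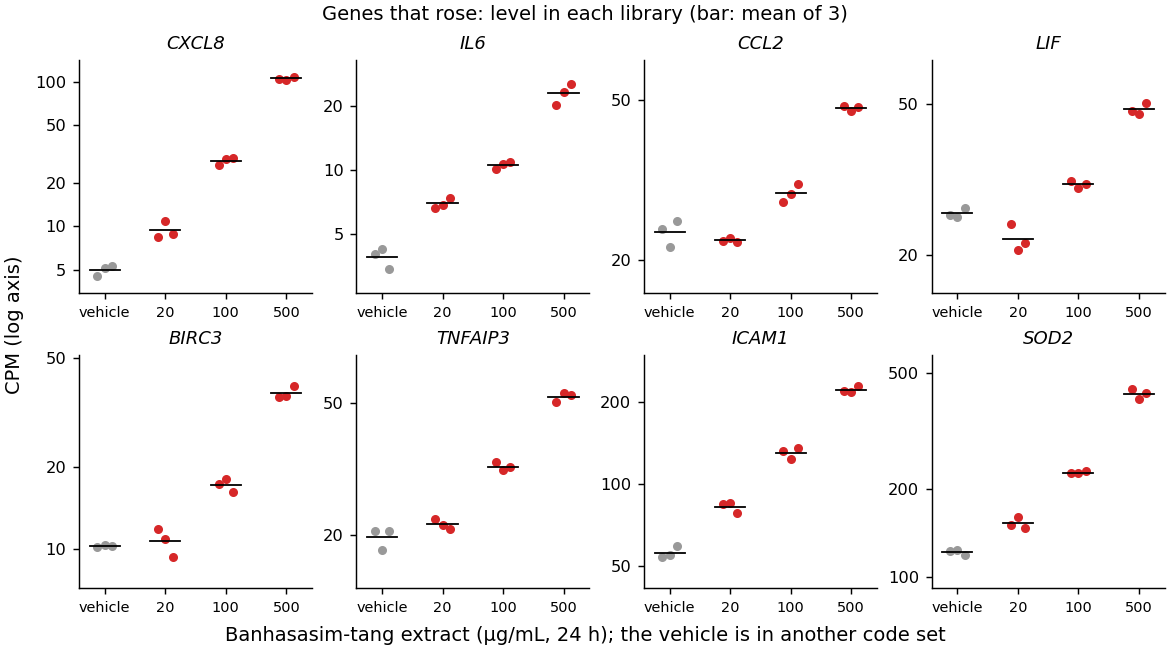
Level of 8 genes in CPM (y axes, log scale) in each of the 3 libraries of the vehicle and of the 20, 100 and 500 µg/mL groups (x axis); points are libraries and bars are means. In all 8 genes the 3 high-dose points lie above the 3 medium-dose points and these above the 3 low-dose points, from 105, 103 and 109 CPM for CXCL8 at the high dose down to 8.43, 10.9 and 8.85 CPM at the low dose.

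Among genes with a symbol outside both lists, the largest rise with at least 5 CPM in the higher group was that of SERPINB2 (ENSG00000197632, chr18:63871692-63903890, plus strand), an inhibitor of urokinase. It measured 30.01, 29.95 and 29.24 CPM at the low dose, 56.8, 53.7 and 55.3 CPM at the medium dose and 94.5, 97.6 and 105 CPM at the high dose, a log2 change of 1.74 ± 0.0527 (SE, adjusted p = 2.81e-30) with no overlap. CLDN1, a tight junction protein, rose from 6.48, 5.19 and 6.17 CPM to 13.0, 12.6 and 12.9 CPM, a log2 change of 1.11 (adjusted p = 2.35e-13). PTX3, a soluble pattern recognition protein, rose by 0.97 (adjusted p = 9.44e-18). Among 6 metallothionein and zinc genes tested MT2A alone passed the test: it had 231, 226 and 218 CPM at the low dose and 353, 381 and 380 CPM at the high dose, a log2 change of 0.72 (adjusted p = 8.9e-14). Reads of MT2A and its close paralogs may not have been fully separated.

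The dose steps from 20 to 100 and from 100 to 500 µg/mL have the same ratio. In the first, 87 genes passed the test (0.506%), 57 up (0.332%) and 30 down (0.175%). In the second step 412 passed it (2.4%), 199 up (1.16%) and 213 down (1.24%). The first count fell to 48 without the first medium-dose library and to 31 without the third low-dose library. The second fell to 254 without the first medium-dose library, 272 without the third medium-dose library and 274 without the third high-dose library. Both steps share the medium-dose libraries, so only each gene's own values are set side by side. For CXCL8 the log2 changes were 1.60 in the first step and 1.89 in the second (adjusted p = 2.4e-20 and 5.69e-28), and for SERPINB2 0.89 and 0.84 (adjusted p = 2.29e-17 and 5.73e-18). CLDN1 changed by 0.32 and 0.79 (adjusted p = 0.192 and 6.68e-09) and IER3, an early response gene, by 0.56 and 1.19 (adjusted p = 0.0846 and 3.8e-09). In all 15 of the largest rises and in 10 of the 15 largest falls, the 3 medium-dose libraries lay between those of the other doses. These genes were picked for large changes with the high-dose and low-dose libraries apart, which favours a medium group in between. The share over all genes is not given, so these counts do not show a graded response in general. Whether a gene's 2 steps differ in size was not tested.

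For the stress response lists the background is the 3.08% of all genes that rose and the 3.58% that fell. Of 25 tested members of the ATF4 response, which supplies amino acids and redox capacity under stress, 11 rose, with a median log2 change of 0.193 over the list. The count was 6 without the first and 7 without the third low-dose library. SLC7A11, the cystine importer, rose from 114, 122 and 125 CPM to 166, 154 and 146 CPM, a log2 change of 0.37 (adjusted p = 8.12e-07). ASNS, the asparagine synthetase, changed by 0.25 and TRIB3, a pseudokinase of the pathway, by 0.30 (adjusted p = 1.91e-06 and 4e-04). Among 18 chaperones and folding enzymes of the endoplasmic reticulum 6 rose, with a median of 0.088. HSPA5, the main chaperone there, stood at 3799, 3787 and 3624 CPM at the low dose and at 4242, 4162 and 4236 CPM at the high dose, a log2 change of 0.17 (adjusted p = 0.000619). Its groups did not overlap although the change was small. Of 15 heat shock chaperones 2 fell, with a median of -0.052, and 1 fell without the first high-dose, the first low-dose or the second low-dose library. They were DNAJB1, a cofactor of HSP70 (-0.14, adjusted p = 0.00602), and the scarce CRYAB, a small heat shock protein (-0.91, adjusted p = 0.00837). DNAJB1 lost its call without the first low-dose library (-0.12, adjusted p = 0.0678), and CRYAB without the first high-dose library (-0.82, adjusted p = 0.0639) or the second low-dose library (-0.82, adjusted p = 0.0526).

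NRF2 target genes, which handle oxidants, gave 7 rises and 2 falls among 25 tested, with a median of 0.105, where 3.08% of all genes rose and 3.58% fell. TXNRD1, the thioredoxin reductase, rose by 0.26 and the ferritin chain FTH1 by 0.29 (adjusted p = 7.34e-05 and 0.000311). HMOX1, a frequently used NRF2 readout, measured 58.0, 61.4 and 60.1 CPM at the low dose and 63.0, 66.8 and 65.6 CPM at the high dose, with an adjusted p of 0.107. SQSTM1, an autophagy receptor, rose by 0.31 (adjusted p = 5.01e-09). Of 7 tested targets of the aryl hydrocarbon receptor, 3 passed the test upward, among them TIPARP with 0.22 (adjusted p = 0.000379). On either strand of the same RefSeq windows, the letters GCGTG of the aryl hydrocarbon receptor element stood in 5 of 6 target genes in the table (83.3%) and 40.6% of all genes. TGACNNNGC of the antioxidant element stood in 5 of 16 NRF2 targets (31.2%) and 16.1% of all genes. TGATGNAAN of the amino acid response element stood in 8 of 22 ATF4 genes (36.4%) and 4.45% of all genes.

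Interferon-stimulated genes gave 9 rises among 23 tested (3.08% of all genes rose), with a median of 0.204. That count was 5 without the first low-dose library and 4 without the third high-dose library. IRF1, a transcription factor that NF-kB and interferon both induce, rose from 27.2, 28.3 and 25.1 CPM to 40.8, 38.9 and 39.4 CPM, a log2 change of 0.56 (adjusted p = 1.96e-12). OAS3, a sensor of double-stranded RNA, rose by 0.32 (adjusted p = 0.000517). Among 15 matrix proteases and their inhibitors 7 rose and 1 fell. ADAMTS1, a secreted protease, went from 51.0, 48.7 and 48.1 CPM to 66.7, 69.5 and 67.7 CPM, a log2 change of 0.46 (adjusted p = 8.06e-11), and the collagenase MMP1 rose by 0.40 (adjusted p = 2.64e-08). The high-dose libraries of IRF1 and ADAMTS1 were all above the low-dose libraries.

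**Figure D3:**
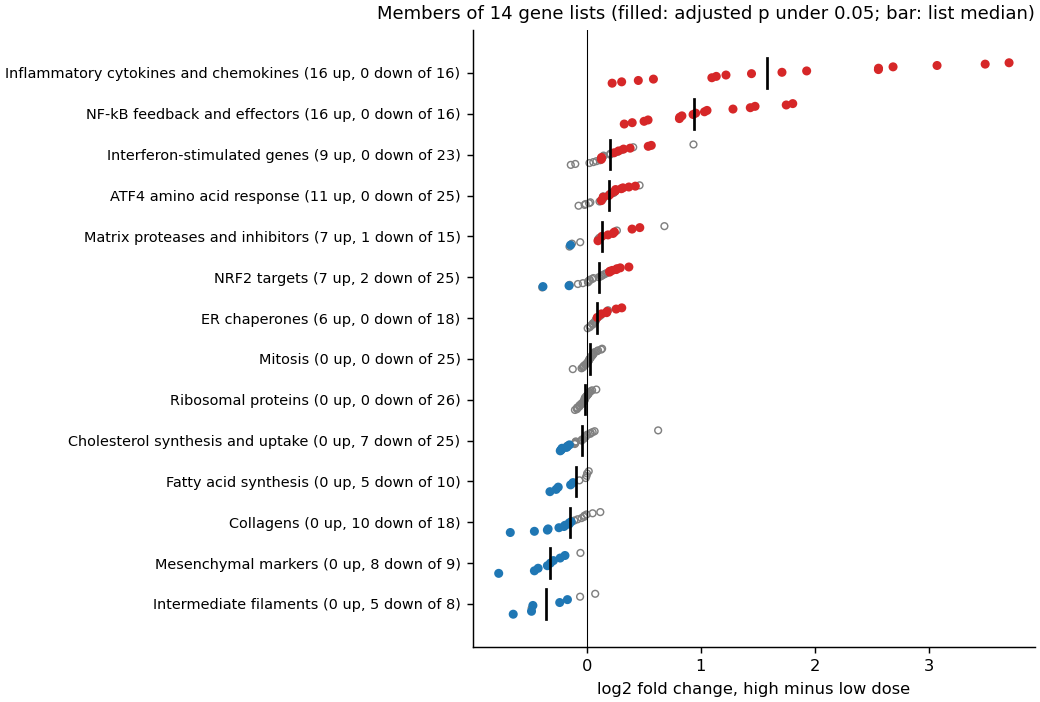
Log2 fold change between the high and low dose (x axis) for each tested member of 14 gene lists (y axis); filled points passed the test, open circles did not, and vertical bars are list medians. The median stands at 1.577 for cytokines and 0.943 for NF-kB genes, near 0 for mitosis and ribosomal protein genes, and below 0 for collagens, mesenchymal markers and intermediate filaments.

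ACTA2, TAGLN and part of the collagen and matrix genes fell. ACTA2 (ENSG00000107796, chr10:88935074-88991339, minus strand), the smooth muscle actin of myofibroblasts, measured 80.8, 81.9 and 87.0 CPM at the low dose, 71.8, 71.7 and 75 CPM at the medium dose and 45.8, 52.3 and 48.1 CPM at the high dose. It fell by 0.77 ± 0.0621 on the log2 scale (SE, adjusted p = 9.26e-14) with no overlap between doses, and the vehicle mean was 86.0 CPM. TAGLN, an actin-binding partner in contractile cells, fell by 0.29 (adjusted p = 3.19e-05). Of 9 markers of mesenchymal cells and fibroblasts 8 fell, against 3.58% of all genes, with a median of -0.32. All 3 high-dose libraries lay below all low-dose libraries in 8 of them, as they did in 11.3% of all genes tested. The summed level of the list was 6190 to 6410 CPM in the low-dose libraries and 5210 to 5340 CPM in the high-dose libraries. In bulk RNA, fewer cells of a type and less RNA per cell cannot be told apart, and the part of such markers in the falls below was not tested. PDGFRB, the receptor for platelet-derived growth factor, went from 78.0, 75.9 and 72.0 CPM to 54.5, 58.7 and 54.6 CPM, a log2 change of -0.43 (adjusted p = 1.46e-10).

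Of 18 collagen genes 10 fell (3.58% of all genes did), with a median of -0.146, and in 11 of the 18 the 3 high-dose libraries lay below all low-dose libraries. COL11A1 (ENSG00000060718, chr1:102876467-103108872, minus strand), a minor fibrillar collagen, measured 32.1, 30.6 and 33.4 CPM at the low dose, 25.8, 26.7 and 26.7 CPM at the medium dose and 20.6, 20.0 and 19.7 CPM at the high dose. It fell by 0.67 ± 0.0515 on the log2 scale (SE, adjusted p = 1.96e-14), and the doses were separate. COL3A1, a fibrillar collagen of distensible tissues, went from 56.6, 55.9 and 57.4 CPM to 41.7, 39.8 and 42.1 CPM, a log2 change of -0.46 (adjusted p = 1.09e-07). COL1A2, a chain of the main fibrillar collagen, went from 1997, 1954 and 1955 CPM to 1582, 1492 and 1572 CPM, a log2 change of -0.35 (adjusted p = 5.83e-08). COL5A1, which starts fibril assembly, fell by 0.34 (adjusted p = 4.18e-10). None of the high-dose libraries of COL3A1 and COL1A2 reached the low-dose range.

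Of 21 matrix glycoproteins and crosslinking enzymes 6 fell and 1 rose, beside 3.58% and 3.08% of all genes. THBS2, a matricellular glycoprotein, fell by 0.30 (adjusted p = 1.33e-11) and POSTN, an adapter between collagen and integrins, by 0.23 (adjusted p = 1.98e-06). LOX, the lysyl oxidase that crosslinks collagen, was the rise: 138, 140 and 138 CPM at the low dose became 165, 167 and 164 CPM at the high dose, a log2 change of 0.25 (adjusted p = 8.68e-09). Of 14 targets of TGF-beta 5 fell, ACTA2 and TAGLN among them, and 1 rose.

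Intermediate filament genes fell in 5 of 8 cases (3.58% of all genes), with a median of -0.356, and in 3 without the first high-dose library. KRT18 (ENSG00000111057, chr12:52948871-52952901, plus strand), a keratin of simple epithelia that some glioma lines express, measured 173, 178 and 168 CPM at the low dose, 143, 151 and 140 CPM at the medium dose and 106, 112 and 114 CPM at the high dose. It fell by 0.65 ± 0.0441 on the log2 scale (SE, adjusted p = 3.28e-16), and its partner KRT8 fell by 0.47 (adjusted p = 9.34e-07). NES, the filament of neural progenitors, fell by 0.49 (adjusted p = 2.68e-05). ITGB4, the integrin chain of hemidesmosomes that anchors to keratin, went from 24.6, 25.5 and 25.7 CPM to 14.2, 14 and 15.9 CPM, a log2 change of -0.79 (adjusted p = 9.63e-12). The high-dose libraries of both keratins and ITGB4 lay below all low-dose libraries. Epithelial markers, a list that holds both keratins, summed to 186 to 197 CPM at the low and 119 to 127 CPM at the high dose, with EPCAM at 4 and 0 counts, and their part was not tested. The largest fall with at least 5 CPM in the higher group was MIAT, a long noncoding RNA. It had 8.5, 7.91 and 8.02 CPM at the low dose and 5.27, 4.24 and 3.64 CPM at the high dose, a log2 change of -0.88 (adjusted p = 1.26e-07). RNF112, a brain ubiquitin ligase, fell by 0.80 (adjusted p = 2.72e-09).

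**Figure D4:**
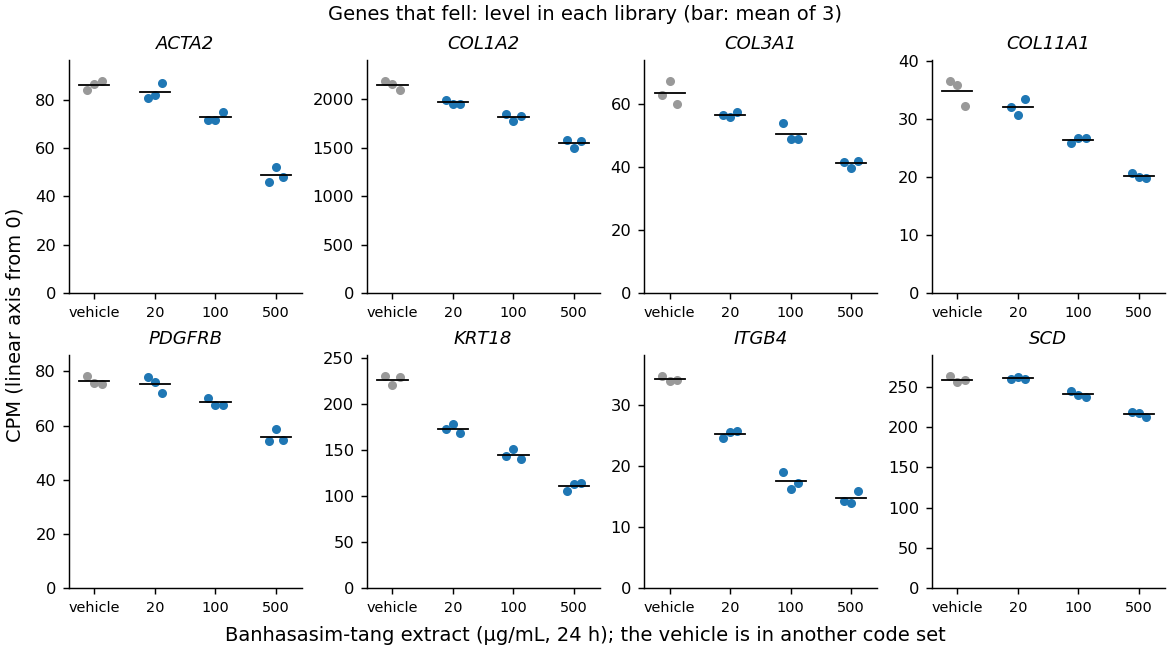
Level of 8 genes in CPM (y axes, linear from 0) in each of the 3 libraries of the vehicle and of the 20, 100 and 500 µg/mL groups (x axis); points are libraries and bars are means. The high-dose points lie below the low-dose points in all 8, as with 45.8, 52.3 and 48.1 CPM against 80.8, 81.9 and 87.0 CPM for ACTA2.

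Several lipid synthesis genes fell slightly. Of 10 fatty acid synthesis genes 5 fell, with a median of -0.093, and of 25 genes of cholesterol synthesis and uptake 7 fell, with a median of -0.046, beside falls in 3.58% of all genes. The cholesterol count was 4 without the second low-dose library and 4 without the third high-dose library. SCD, the desaturase that makes oleate, went from 259, 262 and 260 CPM to 218, 217 and 213 CPM, a log2 change of -0.27 (adjusted p = 3.19e-08). SREBF1, the transcription factor of fatty acid synthesis, fell by 0.32 (adjusted p = 1.89e-05). For SCD the 3 high-dose libraries were below all low-dose libraries. The sterol element, searched on either strand in a form with 1 open base, stood in 1 of 18 cholesterol genes with a promoter in the RefSeq table (5.56%) and in 0.19% of all genes.

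Members of the following 5 lists were not called. Called by edgeR were 0 of 25 mitosis genes, 0 of 26 ribosomal protein genes, 0 of 25 nuclear genes of oxidative phosphorylation, 0 of 17 proteasome subunits and 0 of 13 mitochondrially encoded proteins. Over all genes the test called 6.67%. At an unadjusted p under 0.05 there were 1, 1, 1, 2 and 0 in the same order, against 2849 of all 17190 genes, and DESeq2 called 0 in each. Log2 changes ran from -0.12 to 0.13 for mitosis genes and from -0.1 to 0.08 for ribosomal protein genes. These ranges describe how far the members were from the low dose and do not show that they were equal.

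Yijung-tang, whose libraries carry the same code set and are not shared with Banhasasim-tang, allows a test of what differs between formulas. The log2 change from 20 to 500 µg/mL differed between them for 1730 of 17190 genes (10.1%), with 950 changes higher (5.53%) and 780 lower (4.54%) for Banhasasim-tang. Yijung-tang itself gave 3725 calls between its doses (21.7%), 1753 up (10.2%) and 1972 down (11.5%). By the same test 14 of 16 NF-kB genes and 9 of 16 cytokines had the higher change with Banhasasim-tang, and 1 cytokine, CSF1, the lower. Yijung-tang raised 4 of these 16 NF-kB genes and lowered 1, and it raised 12 of the 16 cytokines and lowered 1. CXCL8 rose by 3.49 with Banhasasim-tang and by 1.45 with Yijung-tang, a difference of 2.04 ± 0.136 (SE, adjusted p = 3.17e-16). ICAM1 changed by 1.43 and 0.13 (difference 1.3, adjusted p = 3.55e-20) and SOD2 by 1.47 and -0.01 (difference 1.49, adjusted p = 1.16e-19). The difference was 1.70 for BIRC3 and 1.61 for SERPINB2 (adjusted p = 3.05e-15 and 2.63e-21), and PTX3 moved in opposite directions, by 0.97 and -0.46.

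IL1B and PTGS2 rose with both formulas, by 1.22 and 0.94 for IL1B and by 0.95 and 0.83 for PTGS2. The difference was 0.28 ± 0.153 (SE, adjusted p = 0.287) for IL1B and 0.13 ± 0.0742 (SE, adjusted p = 0.31) for PTGS2, which does not show that they respond alike. ACTA2 fell by 0.77 and 0.75, a difference of -0.02 ± 0.0881 (SE, adjusted p = 0.933). Yijung-tang lowered 9 of 9 mesenchymal markers, 7 of 18 collagens (2 rose) and 5 of 8 intermediate filament genes, where 11.5% of all genes fell with it. The change was lower with Banhasasim-tang beyond the test in 1 of these markers, 3 collagens and 2 intermediate filament genes. It was higher in 0, 0 and 2. Over all genes it was lower in 4.54% and higher in 5.53%. Of the 15 largest falls 5 were lower than with Yijung-tang beyond the test, the largest difference being that of ITGB4 (-0.79 against 0.34, difference -1.13, adjusted p = 2.46e-12). These 15 were picked by the Banhasasim-tang change, which is part of the difference, so the choice favours lower values.

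Of 18 endoplasmic reticulum chaperones 6 rose with Banhasasim-tang and 15 fell with Yijung-tang, and the change was higher with Banhasasim-tang beyond the test in 16. Over all genes tested 3.08% rose with Banhasasim-tang, 11.5% fell with Yijung-tang and 5.53% had the higher change with Banhasasim-tang. HSPA5 changed by 0.17 and -0.52 (difference 0.69, adjusted p = 6.74e-15). The genes that Banhasasim-tang moved less included TXNIP, a glucose-regulated inhibitor of thioredoxin. TXNIP measured 8.13, 8.51 and 9.48 CPM at the low dose and 13.0, 13.1 and 11.9 CPM at the high dose of Banhasasim-tang, a log2 change of 0.54. With Yijung-tang its mean went from 10.8 to 216 CPM, a log2 change of 4.32, and the difference was -3.78 ± 0.115 (SE, adjusted p = 6.84e-30). Its relative ARRDC4 changed by 0.11 (adjusted p = 0.678) and 1.99, and HMOX1 by 0.12 and 1.58.

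**Figure D5:**
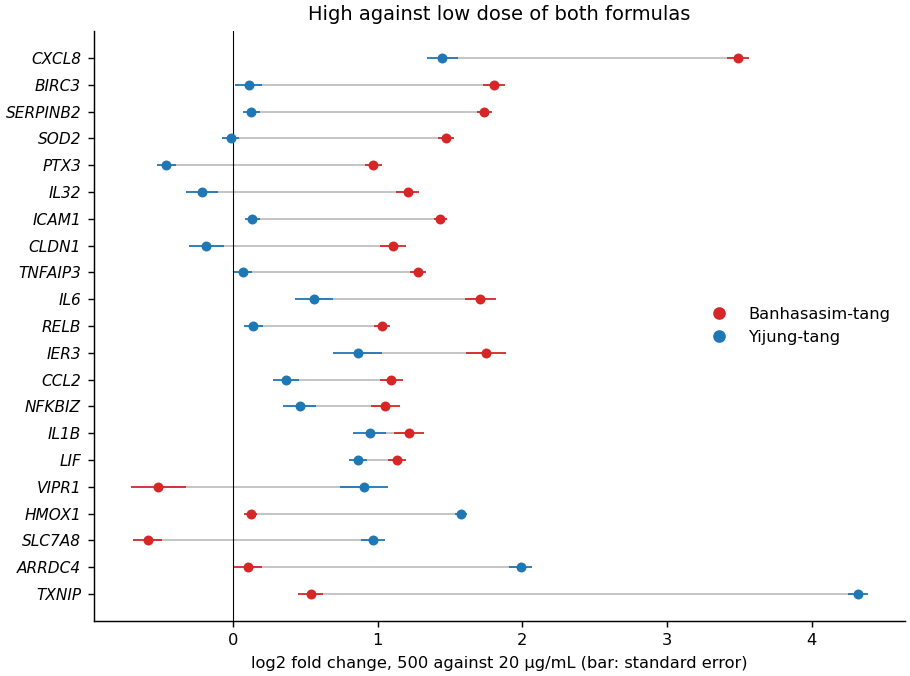
Log2 fold change from 20 to 500 µg/mL with its standard error (x axis) for Banhasasim-tang and Yijung-tang in the 15 largest rises and in genes with the largest difference between formulas (y axis). CXCL8, BIRC3, SERPINB2, SOD2 and PTX3 lie farther right with Banhasasim-tang, and TXNIP (0.54 against 4.32), ARRDC4 and HMOX1 farther right with Yijung-tang.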

How the data were processed

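The authors deposited RSEM expected counts per gene for 60 libraries of SW1783 cells, of which 9.22% were not whole numbers. Per the labels, RNA was prepared with a stranded kit and read in pairs. Per the submitters' processing notes, reads were aligned to hg38 (GRCh38) with STAR 2.7.3a and counted with RSEM 1.3.3, and the notes also name Trim Galore 0.6.5 and FastQC 0.11.9. No source used here gives the annotation release or the strand setting, so antisense partners and close paralogs are uncertain.

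The deposited expected counts were rounded. edgeR 4.0.16 (R 4.3.3) was fitted to 57 libraries of 19 groups, with TMM scaling, filterByExpr by group, quasi-likelihood tests and Benjamini-Hochberg adjustment over 17190 of 60675 genes. An adjusted p under 0.05 was called. Bojungikgi-tang, with 1 library per dose, was left out. Standard errors are the fold change divided by the square root of F. Symbols were found for 41574 genes, 365 of them only in GENCODE v29, which also gave the coordinates. Promoters are from RefSeq. On simulated counts 16989 genes were tested, with known changes of log2 0.3 in 49 genes, 0.5 in 50, 1 in 48 and 2 in 49. The high against low test recovered 67.3%, 78%, 81.2% and 81.6% of these, and 3.21% of its calls were unchanged genes. All other genes were simulated without change, so these shares may not hold for the real comparison.

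The comparison and the 51 gene lists were chosen with earlier results of these data known. Named were the 15 largest rises and 15 largest falls by fold change, with a symbol and no overlap between the libraries of the 2 groups. Their mean was at least 5 CPM in the higher of the 2 groups, so a rise could qualify through the high dose alone. Also named were up to 4 called members per list, up to 2 of the highest in lists with no call, and the 5 largest differences from Yijung-tang in each direction. CXCL2, CXCL3, CXCL5, CSF1, TSLP, IL11, IL33, NFKB1, NFKB2, NFKBIA, TRAF1, VCAM1, PTGS2, C3 and ASNS fall outside these rules and were chosen after their values were seen. Some results are not reported here. Alternatives were RLE scaling, DESeq2 1.42.0, other filters, other sets of libraries, the replicate number as a block, and leaving out each library.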

Additional observations from a re-analysis of the deposited data

Results flagged for a closer look

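These results stand out because the change from 20 to 500 µg/mL differed between Banhasasim-tang and Yijung-tang by edgeR's test of the difference itself, which 1730 genes passed. The mitochondrial share of the Yijung-tang high-dose libraries was 6.91% ± 1.17 (SD, n = 3), more spread than in the Banhasasim-tang groups. Pairs of these libraries had a chi-square per degree of freedom of 7.3 to 10.7, against 2.47 to 4.82 within the Banhasasim-tang groups. The p-values rest on 1 estimate of spread per gene over all 57 libraries, and the part of this wider spread in the differences was not tested. All differences below are log2 changes of Banhasasim-tang minus those of Yijung-tang.

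Among the 15 largest rises the difference was 2.04 for CXCL8, 1.7 for BIRC3, 0.88 for IER3, 1.61 for SERPINB2, 1.15 for IL6, 1.49 for SOD2 and 1.3 for ICAM1. It was 1.21 for TNFAIP3, 1.42 for IL32, 0.27 for LIF, 1.29 for CLDN1, 0.73 for CCL2, 0.59 for NFKBIZ and 0.89 for RELB. IL1B was the rise whose difference did not pass the test. PTX3, which fell with Yijung-tang, had a difference of 1.43.

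Among the 15 largest falls the difference was -1.13 for ITGB4, -0.55 for PLXDC1, -0.71 for the cytoskeletal adaptor ANK3, -0.34 for COL11A1 and -0.2 for KRT18. The genes lowest against Yijung-tang were TXNIP with -3.78, ARRDC4 with -1.88, the amino acid transporter SLC7A8 with -1.56, HMOX1 with -1.45 and the peptide receptor VIPR1 with -1.42. SLC7A8 went in opposite directions, by -0.59 with Banhasasim-tang and 0.97 with Yijung-tang (adjusted p = 2.16e-05 and 3.89e-13).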

How the results depend on the processing

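Under RLE scaling, DESeq2, other filters and other sets of libraries, between 988 (DESeq2, 964 of them shared) and 1169 genes (a filter of 5 CPM) changed between the high and the low dose, against 1146. With 1 library left out the range was 784 to 943, and the tests then had fewer samples. With no filter on low counts 168 genes passed the test between medium and low dose. A fit of the compared groups alone gave 1111 differences from Yijung-tang, and 2522 calls for Yijung-tang itself against 3725. The causes were not tested. Leaving out 1 library gave 31 to 62 genes for medium against low dose, 254 to 301 for high against medium dose, 1188 to 2007 for the difference from Yijung-tang and 2887 to 3627 for Yijung-tang. For list members called the ranges were 15 to 16 for cytokines and for NF-kB genes, 8 to 9 for collagens, 3 to 5 for intermediate filaments, 4 to 11 for interferon-stimulated genes, 6 to 10 for the ATF4 response and 4 to 6 for cholesterol genes. The cholesterol count was also 4 with no filter and 4 in a fit of code set 7 alone. Mitosis genes gave 1 call under 4 alternatives, mitochondrially encoded proteins 4 with no filter and the proteasome 1 in the fit of code set 7. Among 160 named or listed genes, 157 were called, and 1873 of their 2030 values under alternatives stayed past the threshold in the same direction, the other 157 no longer past it and 0 reversed. Cytokine calls numbered 12 under DESeq2, which gave no adjusted p for CSF2, CSF3 and CXCL1 and lost IL33 (adjusted p = 0.0646), and 12 under the filter of 5 CPM, where fewer were tested. Counts per library limit what can be said of these and of CXCL2, CXCL3 and IL1A.

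With the replicate number as a replicate block, 1311 genes passed the test between high and low dose, 114 between medium and low dose and 486 between high and medium dose. Without the block the counts were 1146, 87 and 412. The block gave 2044 differences from Yijung-tang against 1730, and 4096 calls for Yijung-tang against 3725. The numbers were not taken to pair the samples, since the deviations of same-numbered high-dose and low-dose libraries correlated at 0.017, 0.007 and 0.004, and not every library correlated best with its own number. High-dose and low-dose libraries of different number correlated at -0.03 to 0.022. Same-numbered medium-dose and low-dose libraries correlated at 0.113, 0.108 and 0.015, and those of different number at -0.112 to 0.006. Whether libraries of 1 number share an effect was not tested.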
